A study of Mus musculus with 23 samples.

Results

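Of the 8957 peaks that ChIP-seq with an antibody to Zbtb11 gave in mouse embryonic stem cells (ESCs), 1124 (12.5%) shared no base with any of the 9350 peaks of FLAG-tagged Zbtb11. These antibody-only peaks are described here beside the 7833 Zbtb11 peaks that touched a FLAG-Zbtb11 peak by 1 base or more (shared peaks) and the 1509 peaks of the FLAG-Zbtb11 list (16.1%) that met no Zbtb11 peak (FLAG-only peaks). The Zbtb11 antibody was used in wild-type E14 ESCs in 4 biological replicates. The FLAG antibody was used in 3 replicates of a homozygous Zbtb11 FLAG/FLAG E14 line, in which the tag sits on the endogenous protein, and in 2 replicates of untagged E14 cells as the FLAG control. RNA-seq was measured in 3 replicates each of Zbtb11 lox/lox Rosa26 ERt2-Cre ESCs given 250 nM 4-hydroxytamoxifen (4OHT), which deletes exon 3 of Zbtb11 (Zbtb11 KO), the same cells given ethanol (EtOH control), and Zbtb11 WT/WT Rosa26 WT cells given 4OHT (4OHT control), all for 48 h. The antibodies were used in different lines, and the tagged line was isolated from edited cells, so antibody and line cannot be told apart. The peak lists hold positions only, with replicates combined and no height or summit, so the strength of an antibody-only peak was not analysed here.

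ZBTB proteins bind DNA through zinc fingers and recruit partners through a BTB domain. Many mammalian promoters are CpG islands, stretches that kept their CpG dinucleotides and serve widely expressed genes. ETS factors, among them GABP (NRF-2), a regulator of nuclear genes for mitochondrial proteins, bind a GGAA core at such promoters. A ChIP-seq peak marks where an antibody enriched DNA, which depends on the protein, the antibody and the calling threshold alike.

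Sequences of antibody-only peaks are shown first, since the comparison with the shared peaks turned on short words near their midpoints. All were read from the mm9 genome, 5′ to 3′ on the strand given, outside annotated untranslated regions. The next 2 are the central 120 bases of the peaks with most CpG per base at a promoter and in a gene body. They show the CpG-dense end only, as the median over antibody-only peaks was 2.62 CpG per 100 bases. Each CG is in capitals.
Fam19a5 promoter, chr15:87455020-87455139, + strand: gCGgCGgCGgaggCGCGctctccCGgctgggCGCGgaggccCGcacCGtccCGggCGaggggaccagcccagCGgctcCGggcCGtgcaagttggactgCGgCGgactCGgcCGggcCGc
Tchh gene body, chr3:93250205-93250324, + strand: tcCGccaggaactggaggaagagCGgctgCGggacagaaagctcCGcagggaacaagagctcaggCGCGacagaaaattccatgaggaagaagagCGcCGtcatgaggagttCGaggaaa
The peaks they came from held 14 and 8.3 CpG per 100 bases. An ETS motif, here the letters CCGGAAG on either strand, is in capitals in the next 3, which are the peaks of each place nearest to its median width among those with the motif in the central 300 bases.
C030039L03Rik promoter, chr7:28474147-28474187, + strand: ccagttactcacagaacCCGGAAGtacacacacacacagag
A730056A06Rik gene body, chr7:80517209-80517249, + strand: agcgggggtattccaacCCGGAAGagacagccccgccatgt
intergenic, chromosome 5, chr5:143890855-143890895, + strand: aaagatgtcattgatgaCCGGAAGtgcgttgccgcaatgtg
The next 5 are promoter peaks with the 7-letter word AACTACA, called the promoter heptamer below for the place where it was found, closest to the midpoint.
Ndufa3 and Oscar promoter, chr7:3568872-3568912, + strand: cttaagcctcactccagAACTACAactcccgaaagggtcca
Car11 promoter, chr7:52956336-52956376, - strand: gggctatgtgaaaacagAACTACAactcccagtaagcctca
Fto and Rpgrip1l promoter, chr8:93837383-93837423, + strand: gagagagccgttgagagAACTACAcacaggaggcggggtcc
Fam193a promoter, chr5:34712412-34712452, + strand: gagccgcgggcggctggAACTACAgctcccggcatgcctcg
Zdhhc14 promoter, chr17:5491537-5491577, + strand: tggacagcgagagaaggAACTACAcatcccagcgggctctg
In 4 of these 5 the letters TCCC follow the word after 2 further bases. The last 5 lie away from promoters and hold GGAACCA, called the distal heptamer, closest to the midpoint.
Ubqln4 gene body, chr3:88363569-88363609, + strand: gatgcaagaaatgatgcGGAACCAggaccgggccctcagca
intergenic, chromosome 16, chr16:94079413-94079453, - strand: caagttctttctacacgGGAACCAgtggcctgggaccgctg
Ano6 gene body, chr15:95706486-95706526, + strand: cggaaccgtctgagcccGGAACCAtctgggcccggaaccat
intergenic, chromosome 2, chr2:158482893-158482933, - strand: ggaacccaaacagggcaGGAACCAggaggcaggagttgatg
Gabbr2 gene body, chr4:46749212-46749252, - strand: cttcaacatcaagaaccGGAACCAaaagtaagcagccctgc

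Antibody-only peaks were mostly well separated from FLAG-Zbtb11 peaks. The median gap to the nearest one on the same chromosome was 38.2 kb, with quartiles of 13.5 and 96.2 kb, and 53 of the peaks (4.72%) lay within 2000 bases. At the boundary of the definition, the smallest gap of an antibody-only peak was 63 bases and the fifth smallest 251 bases, whereas the smallest overlap of a shared peak was 305 bases and the fifth smallest 325. None of the 1124 overlapped a peak of the FLAG control or lay within 2000 bases of one. Among shared peaks 149 (1.9%) overlapped one, and among FLAG-only peaks 69 (4.58%). The FLAG-Zbtb11 list kept its peaks that overlap the FLAG control, so a Zbtb11 peak on one of these counted as shared. The 0 therefore follows largely from the definition. With those FLAG-Zbtb11 peaks removed first, 1273 peaks were antibody-only. Antibody-only peaks were narrower, with a median width of 761 bases (quartiles 542 and 1100, range 304 to 3437) against 1154 bases for shared and 805 bases for FLAG-only peaks.

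Placed on the GENCODE annotation of mm9, 512 of 1122 antibody-only peaks on assembled chromosomes (45.6%, 95% Wilson interval 42.7 to 48.6%) overlapped a promoter, taken as 2000 bases before to 500 bases after any annotated transcript start. Shared peaks did so in 57.1% (56.0 to 58.2%) and FLAG-only peaks in 42.5% (40 to 45.0%). Gene bodies held 345 antibody-only peaks (30.7%, 28.1 to 33.5%), more than the 21.1% of shared peaks, and 232 of the 345 (67.2%) touched introns only. Most host genes held 1 of them, and 15 held at least 2, among them, named after the counts were seen, Rbfox3, a neuronal splicing factor gene, with 3 and Esrrb, an ESC nuclear receptor gene, with 2. The 265 intergenic peaks (23.6%) had a share close to the 21.9% of shared peaks, at a median of 17292 bases from a transcript start. Intervals here cover counting error only and neighbouring peaks are not independent, so no p value is given. The share of a chromosome's Zbtb11 peaks that were antibody-only ran, over the assembled chromosomes, from 8.93% (10 of 112, 4.92 to 15.7%) on X to 16.4% on chromosome 8. Of the promoter peaks 105 (20.5%) lay between or across genes on opposite strands, against 23.2% of shared promoter peaks.

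**Figure D1:**
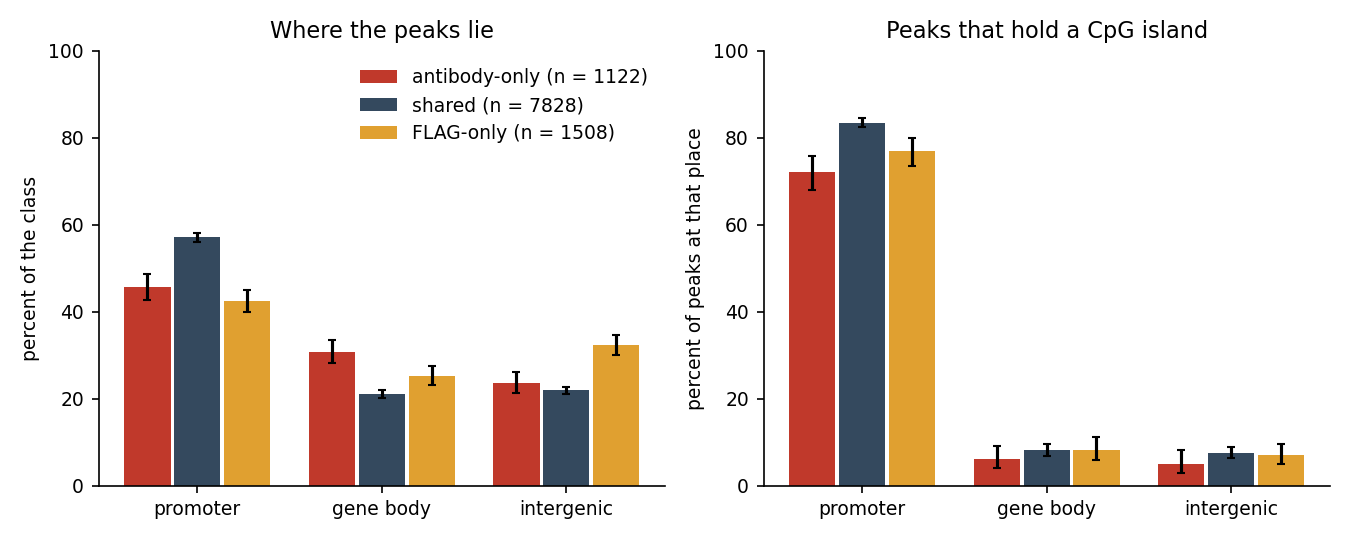
Percent of antibody-only, shared and FLAG-only peaks at promoters, in gene bodies and between genes (left), and percent of the peaks at each place that hold a CpG island (right). Bars are shares and error bars 95% Wilson intervals. Antibody-only peaks were at promoters in 45.6% against 57.1% of shared peaks, and their promoters held an island in 72.1% against 83.5%.

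A CpG island of at least 500 bases, with 55% GC and a ratio of observed to expected CpG of 0.65, was found in 403 of 1122 antibody-only peaks (35.9%, 33.2 to 38.8%), against 51.0% of shared and 37.0% of FLAG-only peaks. At promoters the share was 72.1% (68.0 to 75.8%) in antibody-only and 83.5% (82.4 to 84.5%) in shared peaks, and away from them it was 6.09% in gene bodies and 4.91% between genes. GC content hardly differed, with medians of 53.4% and 53.6%. CpG density had a median of 2.62 per 100 bases against 3.53 in shared peaks, but at promoters alone the medians were 5.69 and 5.54. The widths differ between the classes, and an island needs a minimum length, so the part of width in the island shares was not tested.

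The 5 widest and the 5 most CpG-dense antibody-only peaks were all at promoters. The widest covered the promoter of Zfp316, a zinc-finger gene, over 3437 bases, followed by Phf21b (3358 bases), Arid1b (3232 bases), which encodes a subunit of the BAF chromatin remodeller, Cecr2 (3225 bases), a bromodomain gene, and Comp (2896 bases), a cartilage matrix gene. Most CpG per base was found at Fam19a5 (14 per 100 bases), at Rb1 (13), the retinoblastoma tumour suppressor, at Heca (13), at Hipk2 (12.9), a kinase gene, and at Snx18 (12.5), a sorting nexin gene.

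The ETS motif was less frequent in antibody-only than in shared peaks. In the central 300 bases 97 of 1122 held it (8.65%, 7.14 to 10.4%), against 19.1% (18.3 to 20%) of shared and 11.9% of FLAG-only peaks. At promoters the shares were 11.9% (9.39 to 15%), 24.7% and 15.6%, beside 11.3% of 300-base windows at 22369 protein-coding gene starts. Away from promoters 5.9% of antibody-only and 11.7% of shared peaks held it, beside 0.875% of 51104 windows placed every 50000 bases along the genome. In 4 bands set by the quartiles of the antibody-only widths the order was the same, from 4.95% against 10.3% in the narrowest to 11.8% against 20.8% in the widest. The motif was also placed centrally, with 36.1 matches per 1000 antibody-only peaks per 100 bases beside the midpoint and 7.49 beyond 500 bases from it, against 83.6 and 9.38 in shared peaks. The shares rest on the peak midpoint, as the lists hold no summit, and a motif further out was not counted. In the authors' 7500 consensus peaks, read further below, 29.4% held the motif in the central 300 bases. The reason for this higher share was not tested.

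Words that were more frequent in antibody-only peaks were searched for after the other shares had been seen. The 7-letter words found, with reverse complements joined, were 8192 at promoters and 8191 away from them. They were ranked on the odd-numbered chromosomes and X by the difference in share from shared peaks over its pooled standard error. Shares were then read on the even-numbered chromosomes. The first word at promoters was AACTACA. On the even-numbered chromosomes 23 of 222 antibody-only promoter peaks held it (10.4%, 7.0 to 15.1%), against 2.38% (1.78 to 3.17%) of shared and 0.365% of FLAG-only promoter peaks. Over all chromosomes 55 of 512 did (10.7%), against 2.75%, and 3.61% of windows at gene starts. The ETS motif CCGGAAG was among the 4 words at the other end of the same ranking, in 9.01% of antibody-only and 25.6% of shared promoter peaks on the even-numbered chromosomes.

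The bases after the promoter heptamer were also alike. In the 55 antibody-only promoter peaks with the word, the third to sixth bases after it were most often T, C, C and C, at 83.6, 87.3, 87.3 and 85.5%, against 49.6, 57.7, 60.2 and 57.7% in the 123 shared promoter peaks with it. The extended heptamer, which adds TCCC after any 2 bases and was defined from these peaks, was in 45 of 512 antibody-only promoter peaks (8.79%, 6.63 to 11.6%), 1.03% of shared, 0.312% of FLAG-only and 1.15% of gene starts. Its matches were near the midpoint, with 25.4 per 1000 antibody-only peaks per 100 bases in the centre and 0.267 in the flanks. The heptamer was picked by its share in the central window of antibody-only peaks, and TCCC was added from the same peaks. These counts cover all chromosomes, those of the ranking included. More matches in the centre than in the flanks were therefore in part fixed by that choice. The motif of ZNF143 (mouse Zfp143), a zinc-finger activator of many ubiquitous promoters, was searched as the exact letters ACTACAATT, which begin with the ACTACA that ends the heptamer. This string was in 11 of 512 antibody-only (2.15%, 1.2 to 3.81%) and 0.313% of shared promoter peaks, and 9 of the 55 peaks with the heptamer held both. The commonest bases right after the heptamer, A (52.7%), T (34.5%) and T (83.6%), are the letters that end the string. Sites of ZNF143 with other letters were not counted, so 2.15% is the share of the exact string only. Whether the heptamer is part of such a site was not tested.

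Away from promoters the first word was GGAACCA. On the even-numbered chromosomes 51 of 285 antibody-only peaks held it (17.9%, 13.9 to 22.8%), against 8.85% (7.53 to 10.4%) of shared and 2.79% of FLAG-only peaks. Over all chromosomes the counts were 110 of 610 (18%), alike in gene bodies (17.7%) and between genes (18.5%), and the genome windows held it in 3.95%. The word shares GGAA with the ETS motif, and 4 of the 110 held both. Over peaks at all places it was most frequent in narrow ones, at 23.3% of antibody-only and 9.92% of shared peaks in the narrowest of the 4 width bands, and in the widest the order turned, with 3.93 and 5.9%. Its core GGAACC occurred at least once in 42.1% of antibody-only peaks away from promoters, 22.4% of shared and 12.6% of FLAG-only peaks, and at least 2 times in 5.9, 2.65 and 0.692%. This shorter core was cut from the chosen word and read over all chromosomes, those of the ranking included. Its share in the genome windows was not computed. Neither word kept to the place it is named for. The promoter heptamer was in 6.39% (4.71 to 8.62%) of antibody-only and 3.36% (2.8 to 4.03%) of shared peaks away from promoters, and the distal heptamer in 8.79% (6.63 to 11.6%) and 5.46% (4.83 to 6.17%) of those at promoters. Of all 1122 antibody-only peaks 797 (71.0%) held none of the ETS motif and the 2 heptamers in the central window.

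**Figure D2:**
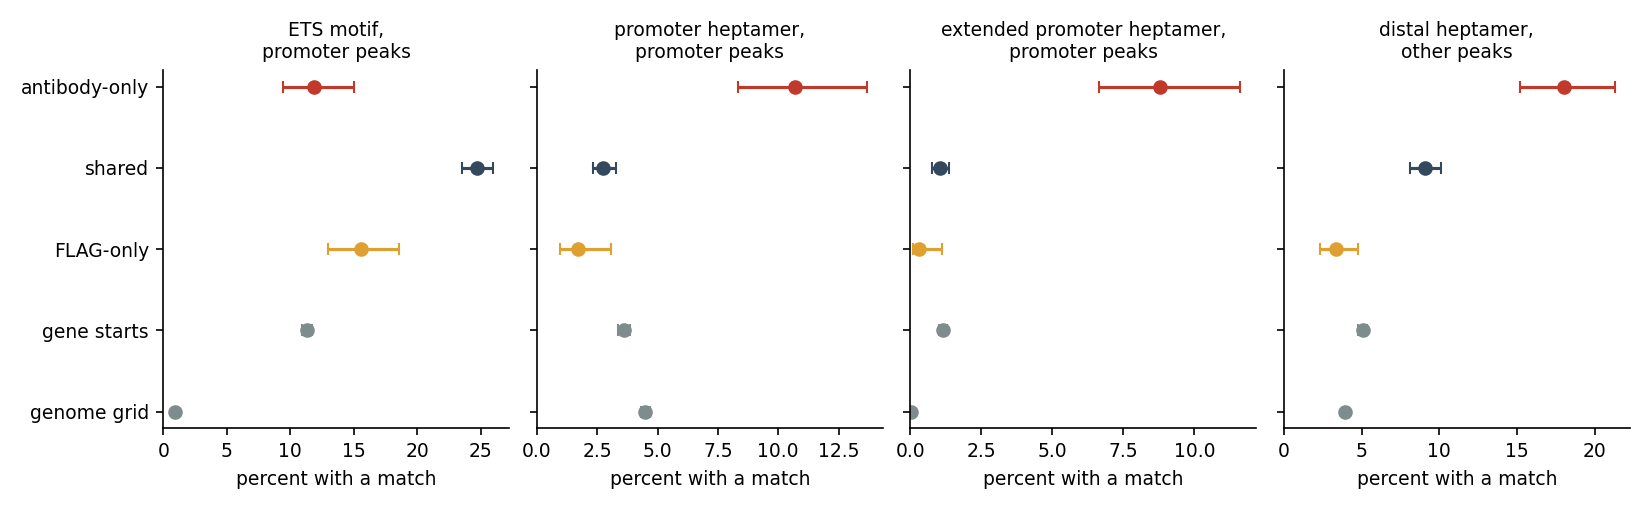
Percent of 300-base windows with a match to the ETS motif, the promoter heptamer, the extended promoter heptamer (at promoters) and the distal heptamer (away from promoters), for each class of peak, protein-coding gene starts and a genome grid. Points are shares and bars 95% Wilson intervals. Antibody-only peaks had the lowest ETS share of the 3 classes (11.9%) and the highest share of each heptamer.

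**Figure D3:**
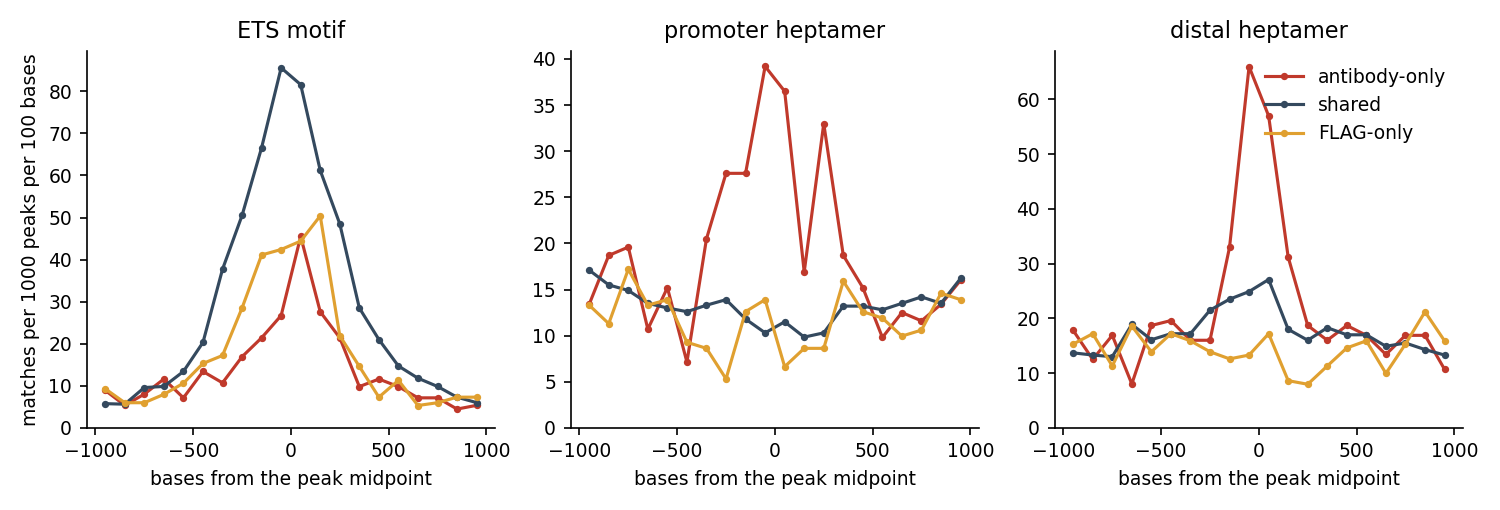
Matches per 1000 peaks in bins of 100 bases, against the distance from the peak midpoint, for 3 motifs and 3 classes of peak. The distal heptamer had 61.5 matches in the centre of antibody-only peaks and 14.9 in the flanks. It had 26.0 and 15 in shared and 15.3 and 15.5 in FLAG-only peaks. The promoter heptamer had 37.9 and 14.1 in antibody-only peaks. Both heptamers were picked by their share in the central window of antibody-only peaks, so their central excess there was in part fixed by that choice.

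The other motifs were read over peaks at all places. The CTCF core was in 17 antibody-only peaks (1.52%, 0.948 to 2.41%) and 0.575% of shared peaks. The REST motif was in 0 of 1122, which allows up to 0.267%, and in 0.485% of shared peaks. The cyclic AMP response element TGACGTCA was in 4 antibody-only peaks (0.357%, 0.139 to 0.913%) and 0.984% (0.788 to 1.23%) of shared peaks, with overlapping intervals. The GC box GGGCGG was in 32.4% (29.7 to 35.1%) and 37.7% (36.6 to 38.8%), and at promoters alone in 53.3 and 56%, where the intervals overlapped. Intervals overlapped also for NRF-1 (GCGCATGC, 1.6 and 1.83%), YY1 (AAGATGGCG, 1.43 and 1.19%), AP-1 (TGANTCA, 6.68 and 5.43%), the E-box CACGTG (7.4 and 6.09%), OCT (ATTTGCAT, 1.6 and 0.996%), ESRRB (TCAAGGTCA, 0.624 and 0.537%) and KLF (GGGNGTGG, 14.4 and 15.7%).

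Whether the same words went with unequal signal elsewhere was asked of the 7500 consensus peaks, for which normalised coverage is given per library. Only 1 antibody-only peak overlapped this set, so the values are of other peaks. They are not independent of the choice of words, however. The heptamers were picked from peak lists called on these same libraries, and the extended heptamer was defined from antibody-only peaks. Consensus peaks on the chromosomes used for the ranking were included. The direction was therefore in part fixed beforehand, also for the ETS motif, and the p values below are no independent support. For each library the median log2 coverage of peaks with a word was compared with that of peaks without it. For the distal heptamer (663 peaks) the difference was 0.79, 0.70, 0.56 and 0.58 in the 4 Zbtb11 libraries and 0.10, 0.10 and 0.06 in the 3 FLAG-Zbtb11 libraries. All 4 Zbtb11 libraries lay above all 3 FLAG-Zbtb11 libraries, by 0.57 on average (exact permutation over libraries, two-sided p = 0.0571, the smallest that 35 arrangements allow here, so that p under 0.05 could not be reached). For the promoter heptamer (287 peaks) the values were 0.32, 0.57, 0.41 and 0.42 against 0.07, 0.13 and 0.02, again without overlap (difference 0.36, exact permutation p = 0.0571). The extended heptamer (99 peaks) gave 0.93, 1.47, 1.15 and 1.31 against 0.26, 0.30 and 0.13 (difference 0.99, exact permutation p = 0.0571). The ETS motif (2206 peaks) went the other way, with 0.52, 0.66, 0.59 and 0.60 in Zbtb11 and 0.74, 0.84 and 0.74 in FLAG-Zbtb11 libraries (difference -0.18, exact permutation p = 0.0571). Paired by replicate number, which left 3 pairs, the differences were 0.60 for the distal heptamer, 0.36 for the promoter heptamer and -0.18 for the ETS motif, each with an exact p of 0.25, the smallest that 3 pairs allow. The promoter heptamer's difference was 0.56 in consensus peaks at promoters and -0.08 in those away from them. With the words searched over whole consensus windows in place of the central 300 bases, the differences were 0.06 for the promoter heptamer and 0.27 for the distal heptamer.

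**Figure D4:**
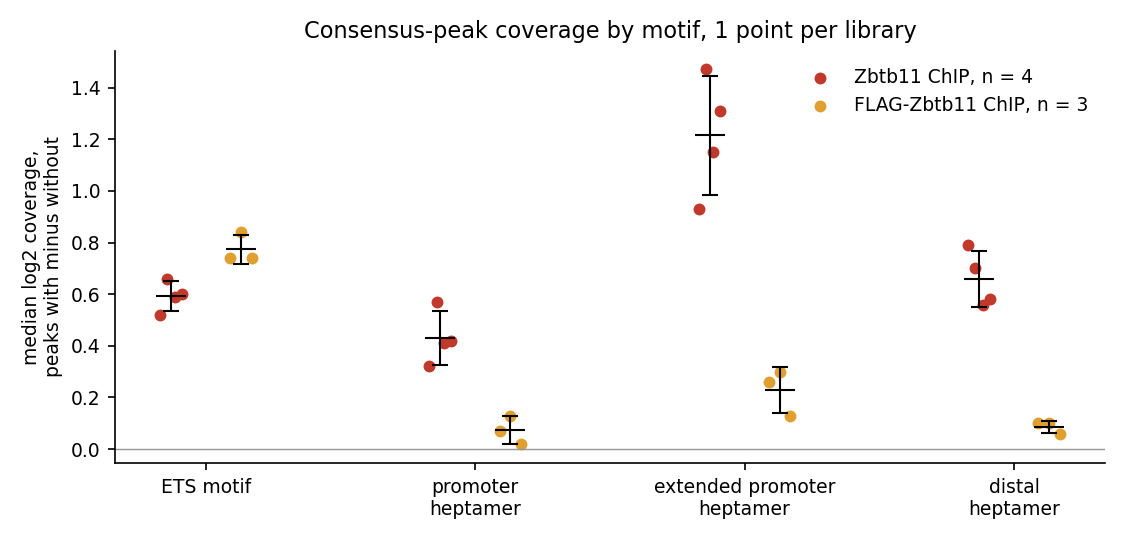
Median log2 coverage of consensus peaks with a motif minus that of peaks without it, 1 point per library for 4 Zbtb11 and 3 FLAG-Zbtb11 libraries, with mean and SD as bars. Zbtb11 libraries lie above FLAG-Zbtb11 libraries for both heptamers and the extended heptamer, and below them for the ETS motif. The heptamers were picked from peak lists of the same libraries.

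Consensus peaks were also put in 10 groups of 750 by the ratio of mean Zbtb11 to mean FLAG-Zbtb11 coverage. The group with the lowest ratio held the distal heptamer in 3.6% (2.49 to 5.19%) and that with the highest in 24.4% (21.5 to 27.6%). The promoter heptamer was in 2.67% and 7.47% of the same groups, and the ETS motif in 25.7% and 13.6%, with a highest share of 38.4% in the fourth group. These shares describe peaks of the same libraries and carry no test.

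At their promoters the antibody-only peaks met 635 annotated genes, 559 of them protein-coding, and 588 (513 protein-coding) had no shared or FLAG-only peak there. Most were active: 470 of those 513 (91.6%) passed the filter of more than 1 CPM (counts scaled to the library total) in 3 libraries, close to the 93.2% of protein-coding genes with a shared peak alone and above the 47.6% of those with no peak. Their median level in the EtOH control was 28.9 CPM, against 34.4 and 15.4 CPM. CPM takes no account of transcript length, so it reflects reads and not transcripts per gene when genes or gene sets are set side by side. Of the ESC markers 9 of 9 were above 1 CPM in each group, with sums of 4421 to 5341 CPM per library, and mesoderm markers summed to 0.99 to 1.64 CPM. Fibroblast markers, 3 or 4 of 6 above 1 CPM, summed to 159 to 299 CPM, neural markers (3 of which were annotated) to 99.4 to 165 CPM and extraembryonic endoderm markers to 9.8 to 15.9 CPM. Between 14301457 and 23876604 reads per library were counted on genes, and the KO itself could not be read from these counts, since Zbtb11 is merged with a neighbouring gene in the annotation.

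No gene with an antibody-only peak as its only kind of promoter peak passed the test in Zbtb11 KO. Of 486 such genes tested 0 reached an adjusted p of 0.05 (edgeR's quasi-likelihood test), beside 0.899% of all 14346 genes. At an adjusted p under 0.05 the count was also 0 with DESeq2 (1.25% of all genes), with the replicate number as a block (2.25%) and without replicate 1 (1.5%), 2 (0.0896%) or 3 (0.145%). At an unadjusted p under 0.05 in edgeR there were 2 genes without the block (2.8% of all genes), 39 with it (9.92%) and 17 of 483 without replicate 1 (6.32%). The 45 genes tested that had an antibody-only peak beside another peak also gave 0. Among 569 genes tested with a FLAG-only peak alone the count was also 0, among 8601 with no peak it was 3, and among 4609 with a shared peak alone it was 126, 118 lower and 8 higher. The log2 fold changes of the 486 genes had a median of -0.003, quartiles of -0.06 and 0.08 and a median standard error of 0.14, and over all genes the median was -0.001. With the promoter heptamer in the peak (60 genes tested) the median log2 fold change was 0.001, and with the ETS motif (65 genes) -0.005. Genes with a shared peak alone had a median log2 fold change of -0.006 and quartiles of -0.07 and 0.06. Mrpl48 and Ndufc2, a mitoribosome and a complex I gene whose promoters carry a shared peak and no antibody-only peak, are examples of genes that fell and are not typical of that class. Ndufc2 was at 29.2, 31.9 and 30.3 CPM in the EtOH control and 3.55, 6.45 and 6.21 CPM in KO (log2 fold change -2.49 ± 0.20 (SE), edgeR adjusted p = 0.00026), and Mrpl48 had a log2 fold change of -1.96 ± 0.17 (adjusted p = 0.00037).

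**Figure D5:**
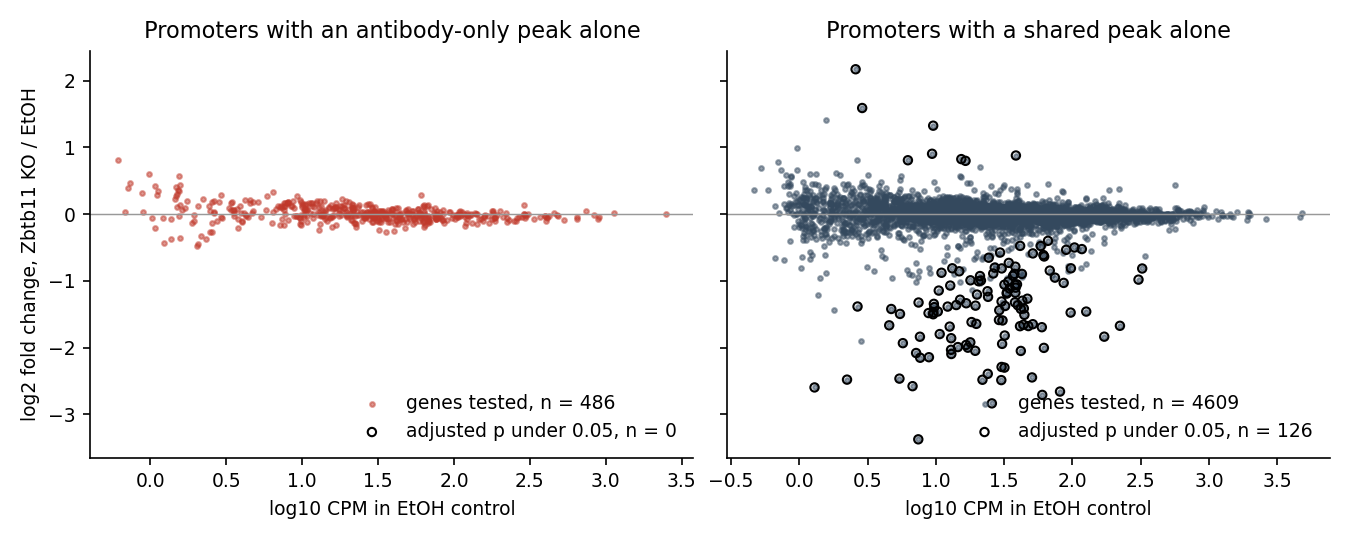
Log2 fold change of Zbtb11 KO over EtOH control against log10 CPM in the EtOH control, for genes with an antibody-only peak (left) or a shared peak (right) as the only kind at the promoter. Each point is a gene, and open circles mark an edgeR adjusted p under 0.05. There are 0 such genes of 486 on the left and 126 of 4609 on the right, beside 0 of 569 with a FLAG-only peak alone, which are not drawn.

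The 2 genes under an unadjusted p of 0.05 without the block were Arid5a and Arid1b, both encoding proteins with an AT-rich interaction domain. Both are shown here for their small p, so the separation of their groups below was in part fixed by that choice. Arid5a was named after its values were seen. Arid5a was at 6.93, 6.37 and 6.06 CPM in the EtOH control and 9.26, 7.71 and 7.55 CPM in KO, without overlap (log2 fold change 0.34 ± 0.13, edgeR adjusted p = 1). Arid1b was at 61.7, 66.1 and 66.2 CPM against 58.4, 57.1 and 53.9 CPM, also without overlap (-0.20 ± 0.08, edgeR adjusted p = 1). With the block the edgeR adjusted p was 0.25 for Arid5a and 0.2 for Arid1b.

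Among the 10 protein-coding genes of this set with the most reads, by median CPM in the EtOH control, were Ncl (nucleolin), Rpl13a, Ybx1, Serbp1, Tdgf1, H3f3b, Rpl17, Pa2g4 and Ubr4. Ncl, whose product acts in ribosome synthesis and whose peak held the distal heptamer, was at 2097, 2722 and 2766 CPM in the EtOH control and 2172, 2667 and 2778 CPM in KO. The libraries of replicate 1 were the lowest in both groups, and the groups overlapped (log2 fold change 0.01 ± 0.17). Tdgf1, an ESC marker that encodes a Nodal co-receptor, was at 1042, 840 and 807 CPM and at 1067, 770 and 722 CPM, overlapping too (-0.07 ± 0.17). The log2 fold changes of the other 7 genes named were between -0.09 and 0.05. For each of the genes named here the edgeR adjusted p was 1.

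Genes of the respiratory chain and of mitochondrial translation were more often at shared than at antibody-only peaks, as were protein-coding genes as a whole. Beside the shares over all genes, respiratory chain genes had higher shares for both kinds of peak. Mitoribosome genes had a higher share for shared peaks and a close one for antibody-only peaks. The counts with an antibody-only peak were small. Of 37 complex I subunit genes 2 (5.41%) had an antibody-only peak and 14 (37.8%) a shared peak, of 49 genes of complexes II to V 3 (6.12%) and 22 (44.9%), and of 76 mitoribosome genes 2 (2.63%) and 45 (59.2%), beside 2.5 and 21.7% of all 22380 protein-coding genes. Ndufa3, a complex I subunit gene whose promoter heptamer is shown above, was at 31.8, 29.4 and 30.0 CPM in the EtOH control and 32.1, 29.3 and 29.9 CPM in KO, with overlapping groups (log2 fold change 0.00 ± 0.09). Ndufa5, Mrps15 and Mrps33 had log2 fold changes of 0.08, -0.06 and -0.07, and Atp5d, Atp5g2 and Uqcr10, of complexes V and III, 0.03, -0.15 and -0.04, with an edgeR adjusted p of 1 each. In KO, 3 of 36 complex I and 7 of 75 mitoribosome genes tested fell and 0 rose, where 0.899% of all genes passed in either direction. None of those that fell had an antibody-only peak, but only 2 genes of each list had one, so this says little.

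Of 365 Zfp genes 17 (4.66%) had an antibody-only peak and 135 (37.0%) a shared one, beside 2.5 and 21.7% of all protein-coding genes. Among the 17 were Zfp354a, Zfp354b and Zfp354c, neighbours on chromosome 11. Of 80 cytosolic ribosomal protein genes 3 (3.75%) had an antibody-only peak and 46 (57.5%) a shared one. The counts were 2 (10.5%, Tdgf1 and Utf1) and 4 (21.1%) of 19 pluripotency genes, and 1 (5.26%, Tbx6) and 3 (15.8%) of 19 early lineage regulators. Antibody-only counts this small say little beside the share over all genes. Zbtb7b in the ZBTB family, Hoxa4, Olfr503 and Trp53 were single members of their lists, and histone and integrated stress response genes had none. Trp53, the p53 gene, had an antibody-only peak at its promoter beside a peak of another class, and was at 404, 555 and 599 CPM in the EtOH control and 418, 545 and 528 CPM in KO (log2 fold change -0.06 ± 0.20, edgeR adjusted p = 1). None of the tested list members with an antibody-only peak passed the threshold in KO, where 0.899% of all genes did.

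In the 4OHT control, which differs from the EtOH control in line and in treatment so that these cannot be told apart, 10 of the 486 genes passed (4 higher, 6 lower), or 2.06%, beside 4.06% of all genes. With the replicate block 155 did, beside 33.6% of all genes, with DESeq2 34 (8.27%), at a threshold of 0.01 5 (0.934%), without replicate 1 82 (17.1%), and without replicate 2 (0.0896%) or 3 (0.165%) 0. Zfp629, a zinc-finger gene, was at 5.16, 3.76 and 3.24 CPM in the EtOH control and 9.47, 8.94 and 7.37 CPM in the 4OHT control (log2 fold change 1.08 ± 0.22, edgeR adjusted p = 0.027). The groups did not overlap, and in KO it was at 4.08, 4.17 and 2.98 CPM (log2 fold change -0.11 ± 0.22). KO and the 4OHT control share the EtOH control libraries.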

How the data were processed

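Peak lists were deposited by the authors as positions on mm9, from reads trimmed with cutadapt, aligned with Bowtie 1.1.2 and called with MACS2 within the IDR pipeline over the replicates of each ChIP, with blacklisted sites removed, so that a peak absent from a list can lie just under its threshold. The coverage (signal) of consensus peaks was normalised by the authors with DiffBind. The counts per gene were deposited by the authors from STAR alignments counted with HTSeq, without normalisation, and 26.2 to 32.4% of each library fell on lines of the table that name no gene, which were left out. Sequence and genes came from NCBIM37 and GENCODE M1, on which 2 antibody-only peaks on unplaced sequence could not be annotated.

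Overlap needed 1 shared base. Motifs were searched on both strands in the central 300 bases (Python 3.11.15, scipy 1.17.1 for Wilson intervals and exact permutation tests). For RNA-seq, edgeR 4.0.16 under R 4.3.3 gave the test of each gene (TMM, all 9 libraries, more than 1 CPM in at least 3, Benjamini-Hochberg adjustment over all genes, threshold 0.05), with DESeq2 1.42.0 as an alternative. Printed CPM of genes use TMM library sizes, and class medians use total counts. Functions and the edgeR fit were tested on simulated data. Standard errors are the size of the log2 fold change over the root of F.

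Same-numbered RNA-seq libraries of different groups deviated together from their group means (correlations 0.43 to 0.82 over 9 pairs), with -0.75 to 0.53 between other numbers. Same-numbered Zbtb11 and FLAG-Zbtb11 libraries gave 0.22, 0.11 and 0.46, and other numbers -0.31 to 0.14. Every same-numbered pair was over 0.1, so the numbers were treated as pairs in the block, although the ranges overlap. Named genes were to be those past the KO threshold (0 passed), the 10 protein-coding genes of highest CPM with an antibody-only peak alone, genes at the 5 widest and 5 most CpG-dense peaks, members of the gene lists, and Mrpl48, Ndufc2 and Trp53. Arid5a, Rbfox3 and Esrrb were named outside this rule, after their values were seen. The peaks, lists and tests were chosen with earlier results of these data known. Input libraries were not analysed here. Some genes and sequences that these rules select are not reported here.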

Additional observations from a re-analysis of the deposited data

How the results depend on the processing

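Of 73 alternatives 59 stayed within the interval (shares), stayed within 1.5 times the count (counts) or kept the direction (coverage differences). For coverage only the sign was compared, so a much smaller difference of the same sign counted as kept. The promoter share of 45.6% became 41.7% with 500 bases on each side of a start, 40.9% with protein-coding transcripts only and 42.7% by peak midpoint, where shared peaks had 53.6%. The CpG island share of 35.9% became 53% with the looser definition (200 bases, 50% GC, ratio 0.6), against 69.4% of shared peaks. The ETS share of 8.65% became 18.1% over whole peaks (40.5% of shared peaks), 6.33% in the central 200 bases (13.8%) and 75.8% for GGAAG after any 2 bases (80.5%). In KO the count was 0 with the replicate block and without each replicate (0 to 0), where without replicate 2 or 3 only 0.0896% and 0.145% of all genes passed, so these 2 say little. In the 4OHT control the count of 10 became 5 at a threshold of 0.01 (0.934% of all genes), 34 with DESeq2 (8.27%) and 155 with the replicate block (33.6%), in which paired libraries share a term, and 0 to 82 without a replicate (82 without replicate 1, with 17.1% of all genes, and 0 without replicate 2 or 3, with 0.0896% and 0.165%), so the count moved with that over all genes. The cause was not tested. The alternatives for coverage were chosen after seeing the data. The promoter heptamer's difference of 0.36 was -0.08 away from promoters, the only one to turn direction, and 0.06 over whole windows, and without 1 library it was 0.31 to 0.40. The distal heptamer's was 0.27 over whole windows and 0.53 to 0.60 without 1 library, and the ETS motif's -0.20 to -0.15. Fewer libraries than 7 cannot give an exact p under 0.1, and no depth is known for the peak lists.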
